A study of Nematostella vectensis with 15 samples.

Results

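Head-to-head gene pairs of the sea anemone *Nematostella vectensis* (hereafter *Nematostella*) are neighboring genes that are transcribed away from each other, so that their first exons face one another across a short gap. They were taken from the deposited gene models as adjacent JGI models on one scaffold, the left one on the minus strand and the right one on the plus strand, each with 2 or more exons and a span under 30 kb, not overlapping and at most 1000 bp apart. The rule found 619 pairs (1238 genes, each in 1 pair) on 281 scaffolds, out of 16500 adjacent nonoverlapping JGI pairs of any orientation and gap. It used positions only and no expression value.

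Genes arranged in this way can share a stretch of open chromatin between their start sites, from which transcription proceeds on both strands (a bidirectional promoter). In mammals such pairs are frequent and often include housekeeping genes, and partners have been described there as transcribed together, as alternatives, or independently. Tail-to-tail pairs, whose 3′ ends face each other, and tandem pairs, which lie on one strand, bring genes close without facing promoters, and serve here for comparison under the same limits.

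Expression was measured by RNA-seq in 15 libraries of adult polyps (female, per the design text), 5 each from cultures acclimated to 15, 20, and 25 °C, all in artificial sea water of 16‰ salinity and all F1 offspring of CH2XCH6. The tissue label is the mesenteric body portion, and the libraries were made from polyadenylated RNA with a stranded kit. The tissue label could not be checked against markers, since the deposited files pair the gene identifiers with no names and 0 of them matched the available table of gene symbols. For the same reason, no role is given to any gene, and pairs are called by scaffold and gap, with coordinates on the JGI scaffolds (the build name is not given in the sources used here).

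The deposited count columns summed to between 3526175 and 22160961 counts for a library, and the 15 °C libraries were the shallowest (median 7727786 counts, as against 14234219 for 20 °C and 11095025 for 25 °C). Where a gene had no count in a library, up to 3 counts remain possible, which is 0.851 CPM (counts scaled to the library total) at the lowest depth and 0.135 CPM at the highest, considering counting error alone. The first principal component of the deviations from the temperature means held 22.8% of their variance over all tested genes. Replicates 3 and 4 at 15 °C had the highest scores on it (0.454 and 0.451) and replicate 2 at 15 °C the lowest (−0.446). The labels do not say whether the libraries of a temperature came from separate animals, so the p-values measure the spread between these libraries, which may be in part technical.

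The gap between partners had a median of 408 bp, with quartiles of 268 and 629.5 bp. It was at most 250 bp in 132 pairs, above 250 and up to 500 bp in 263, and above 500 bp in 224. The 619 pairs made up 27.4% of the 2260 head-to-head pairs under the same exon and span limits. The corresponding share was 20.7% for tail-to-tail pairs (442 of 2136) and 9.40% for tandem pairs (386 of 4108), whose median gaps within that limit were wider, at 527 and 592.5 bp. Head-to-head neighbors thus lay within 1000 bp more often than the other orientations, as a description of these gene models.

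The ends of a gap are ends of gene models and not mapped start sites. A 5′ UTR was annotated in both partners of 104 pairs, in 1 partner of 275, and in neither of 240, and the median gap was 274.5, 382, and 512.5 bp in these groups. Another gene model lay in the gap of 46 pairs, and in the gap or over a partner in 99.

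The 2 pairs with the shortest gaps and the 2 just inside the limit held weakly expressed genes. Their gap classes as a whole did not. Both partners had enough counts to be tested in 83.3% of pairs with gaps up to 250 bp and in 77.7% above 500 bp. The shortest gap was 5 bp (scaffold 8, with another model in the gap), where the partners had 60 and 18 counts over all libraries, and the next was 8 bp (scaffold 3702), where they had 16 and 0. Just inside the limit lay gaps of 1000 bp (scaffold 65, 395 and 0 counts) and 984 bp (scaffold 150, 34 and 71 counts). Just outside it lay 2 pairs with 1001 bp (scaffolds 23 and 35), whose partners averaged 12.7 and 16.7 RPKM (counts scaled to exon length and library size) on scaffold 23 and 269 and 8.44 RPKM on scaffold 35.

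Genes of head-to-head pairs were mostly expressed. Of the 1238 genes, 1102 (89.0%) had enough counts to be tested, as against 70.5% of the 13661 JGI genes under the same exon and span limits, and 37 (2.99%) had no count in any library, as against 7.52%. Their median level was 10.96 RPKM (upper quartile 23.3), as against 5.61. They also differed in features that the rule did not set. Their median number of exons was 6 as against 4, their median exon length 1159.5 as against 948 bp, and a 5′ UTR was annotated in 39.0% as against 19.5%. The median within-temperature SD of log2 CPM was 0.205 for the tested genes and 0.239 for the comparable ones. These values are side by side as descriptions, and no test was run over genes or pairs.

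Both partners passed the filter on low counts in 508 pairs (82.1%), 1 partner in 86, and neither in 25. The share with both was 69.7% for tail-to-tail pairs, 65.5% for tandem pairs, 55.4% for head-to-head pairs more than 1000 bp apart, and 46.0% for all adjacent pairs. In the 86 pairs with 1 tested partner, that partner had a median of 15.2 RPKM and the other a median of 0.0303 RPKM (highest 1.39), with no count at all in 28. All results on pairs concern the 508 with both partners tested.

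Levels of partners were not correlated. Across the 508 pairs, the log2 RPKM of the minus-strand and plus-strand partners had a Pearson correlation of −0.019 and a Spearman correlation of −0.010, and within single libraries Pearson values ran from −0.045 to 0.004. The same Pearson value was 0.002 for tail-to-tail pairs and 0.388 for tandem pairs. The higher partner exceeded the lower by a median of 2.69-fold in RPKM, and by over 4-fold in 179 pairs (35.2%). The median was 2.96-fold for all adjacent, 3.27-fold for tail-to-tail, and 2.11-fold for tandem pairs. The share over 4-fold was 39.7%, 42.9%, and 29.6% in that order. The minus-strand partner was the higher in 251 pairs (49.4%). These correlations are across pairs of the same libraries, and pairs are not independent replicates.

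**Figure D1:**
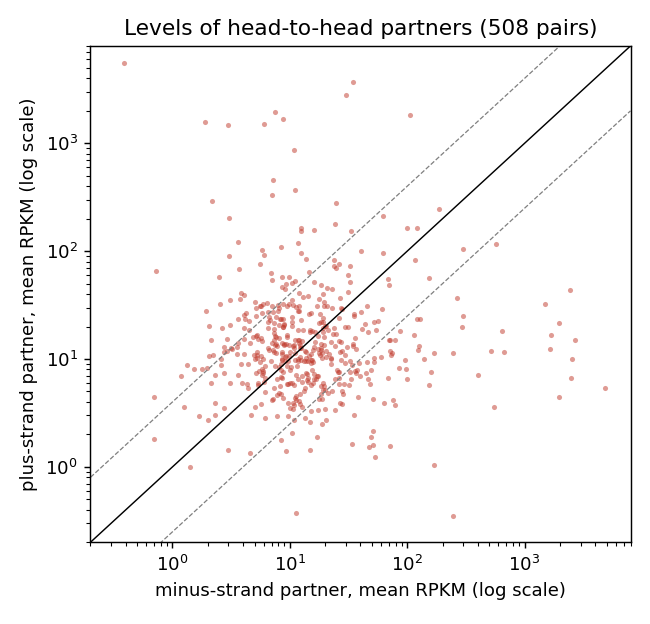
Mean RPKM over the 15 libraries (log scales) of the minus-strand partner against the plus-strand partner in the 508 head-to-head pairs with both partners tested; the solid line marks equal levels and the dashed lines a 4-fold difference. The cloud has no slope (Pearson −0.019 on log2 values), and 179 pairs lie outside the dashed lines (35.2%, all adjacent pairs 39.7%).

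A level over 1000 RPKM was reached by 1 partner in 19 pairs and by both in 0. The share over other genes or orientations is not given here, so these counts show no trait particular to head-to-head pairs. The pair with the highest geometric mean was on scaffold 3 (gap at bases 584070 to 584341), with 106 RPKM on the minus and 1812 RPKM on the plus strand, followed by scaffold 507 (bases 53906 to 54250) with 34.6 and 3669 RPKM. On both scaffolds a 5′ UTR was annotated in both partners. None of these 4 genes was called between 25 and 15 °C except the minus-strand gene on scaffold 507 (log2 change 0.31 ± 0.08, edgeR adjusted p = 0.0070).

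The most unequal pair was on scaffold 90 (477 bp, bases 195968 to 196444). Its plus-strand partner had 3940, 4288, 5808, 6604, and 4264 RPKM at 15 °C, and 4903–6438 RPKM at 20 °C and 4969–7515 RPKM at 25 °C. The minus-strand partner had 1.17, 0.919, 1.12, 0.281, and 1.06 RPKM at 15 °C, 0.162–0.227 RPKM at 20 °C, and 0.0167–0.107 RPKM at 25 °C, from 359 counts in all. The partners' mean levels differed 14151-fold. The weak partner fell by 3.68 ± 0.37 (SE) on the log2 scale from 15 to 25 °C (edgeR adjusted p = 6.4e-07), and its libraries at 25 °C lay below all of those at 15 °C, while the strong partner had a change of 0.29 ± 0.16 (adjusted p = 0.17). The next most unequal pair, on scaffold 1 (271 bp), had 4852 and 5.33 RPKM.

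Coexpression was measured as the correlation of the partners' log2 CPM after the mean of each temperature was removed, so that a shared response to temperature does not enter it. The median within-temperature r of the 508 pairs was 0.109 (quartiles −0.176 and 0.387), and r was above 0 in 307 (60.4%). The median was 0.0499 for tail-to-tail, 0.232 for tandem, and 0.0341 for more distant head-to-head pairs, and 0.0791 for all adjacent pairs. Over all 70229026 possible pairs of tested JGI genes it was 0.0033, and over all 606651 possible pairs among the 1102 tested head-to-head genes 0.0637, with 56.2% above 0. By these medians head-to-head partners were closer to arbitrary combinations of the same genes than to tandem neighbors. After counts were thinned so that all libraries had equal depth, the median r was 0.0429 for the 477 head-to-head pairs still tested. The median was then 0.0313 for tail-to-tail, 0.185 for tandem, and 0.0626 for all adjacent pairs (6093 still tested). The head-to-head value was thus below that of all adjacent pairs. Thinning was a single random draw, which adds counting error and changes the pairs tested, so these medians do not isolate depth. Within single temperatures the median r was 0.134 at 15 °C, 0.192 at 20 °C, and 0.0811 at 25 °C, each from 5 libraries.

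**Figure D2:**
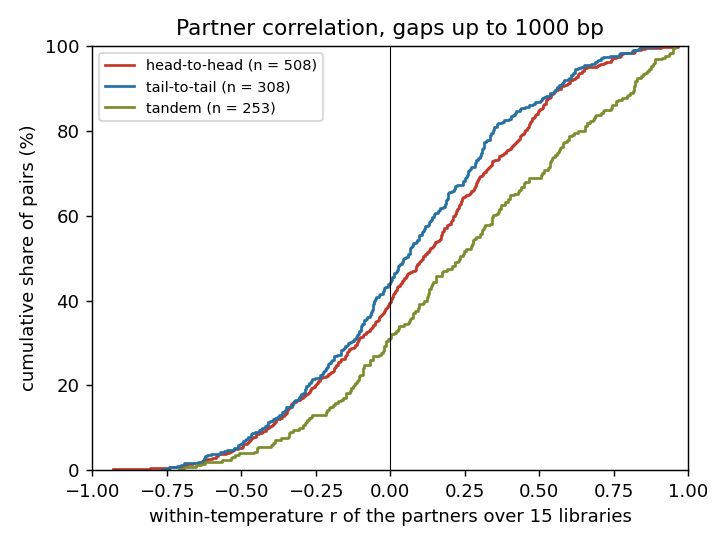
Cumulative share of pairs (%) by the within-temperature r of their partners over 15 libraries, for head-to-head (508), tail-to-tail (308), and tandem (253) pairs with gaps of at most 1000 bp. The head-to-head curve lies between the other orientations over most of the range and close to the tail-to-tail curve; the share with r above 0 was 60.4% for head-to-head, 55.5% for tail-to-tail, and 68.8% for tandem pairs.

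The median r of head-to-head partners was highest where the gap was shortest. The median r was 0.170 in the 110 tested pairs with a gap of at most 250 bp, 0.0981 in the 224 above that and up to 500 bp, and 0.0852 in the 174 above 500 bp. Beyond 1000 bp it was 0.0194 up to 2000 bp, 0.0928 up to 5000 bp, 0.0429 up to 10000 bp, and 0.00900 for larger gaps, so that the order was not strict. After thinning it was 0.0837, 0.0178, and 0.0716 in the 3 classes within 1000 bp, still highest in the shortest but without a steady decline. In the shortest class r was above 0 in 77 of 110 pairs (70.0%), and in 63 of 103 (61.2%) after thinning. The share before thinning was 62.3% for tail-to-tail and 80.0% for tandem pairs of that gap class. All 15 head-to-head pairs there with an unadjusted permutation p under 0.05 had a positive r. So did 10 of 12 such tail-to-tail pairs and 15 of 15 such tandem pairs. Tandem pairs had a higher median in each of the 7 gap classes, from 0.372 at most 250 bp apart to 0.0668 beyond 10000 bp. By annotation, the median r was 0.185 in the 96 tested pairs with a 5′ UTR in both partners, 0.131 in the 242 with 1, and 0.0545 in the 170 with none, and these groups also differ in gap.

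**Figure D3:**
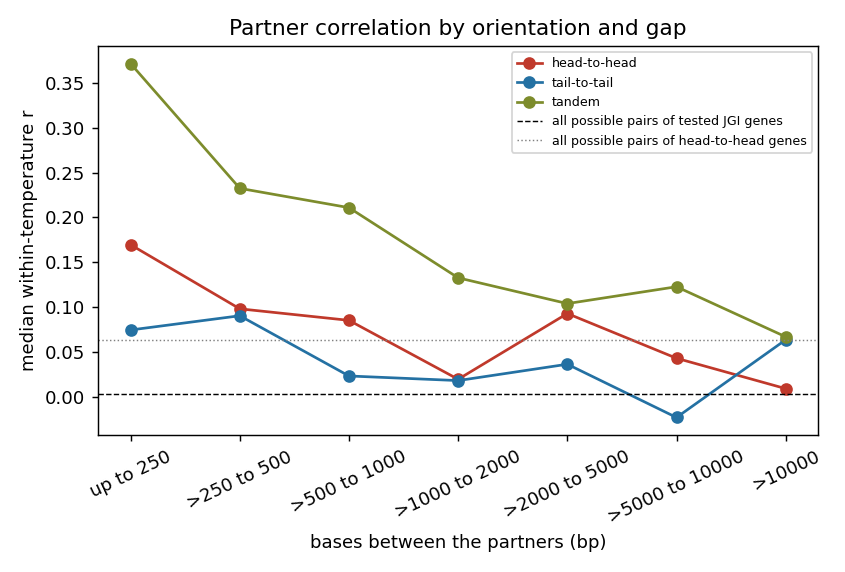
Median within-temperature r of adjacent partners (y axis) by the number of bases between them (x axis, 7 classes) for head-to-head, tail-to-tail, and tandem pairs; dashed and dotted lines mark all possible pairs of tested JGI genes (0.0033) and of head-to-head genes (0.0637). Head-to-head pairs fall from 0.170 to 0.0194 between the first and the fourth class, and tandem pairs lie above them throughout.

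Few single pairs passed the test of coexpression. The test permuted the libraries within temperatures (two-sided, 100000 resamples), with Benjamini–Hochberg adjustment over all 7594 adjacent tested pairs. By this test 5 head-to-head pairs were called with a positive r (0.984%), as against 2.25% of all adjacent pairs. A negative r was called in 2 of the 508, as against 10 of all 7594 adjacent pairs (0.132%). Positive calls numbered 3 of 308 for tail-to-tail and 22 of 253 for tandem pairs (8.70%). At an unadjusted p under 0.05 there were 65 head-to-head pairs (12.8%), 50 with a positive and 15 with a negative r. The share was 14.5% for all adjacent pairs (812 positive, 289 negative of 7594) and 26.9% for tandem pairs. An r over 0.5 was found in 77 head-to-head pairs (15.2%, all adjacent pairs 14.5%). An r under −0.5 was found in 27 of the 508, and in 466 of all 7594 adjacent pairs. The count of 5 was 1 without replicate 1 at 20 °C, 2 without replicate 4 at 25 °C, 3 without replicate 2 or 5 at 15 °C or replicate 2, 3, or 4 at 20 °C, and 1 without both replicates 3 and 4 at 15 °C, a setting chosen after the data were seen. With the replicate number as a block, 1 pair was called.

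On scaffold 217 (265 bp, bases 232612 to 232876) both partners were annotated with a 5′ UTR. The minus-strand gene had 30.7, 24.4, 45.8, 42.3, and 26.8 RPKM at 15 °C, 25.4–32.7 RPKM at 20 °C, and 29.8–34.1 RPKM at 25 °C. The plus-strand gene had 50.02, 47.3, 83.9, 75.4, and 45.8 RPKM at 15 °C, 45.7–63.0 RPKM at 20 °C, and 54.9–76.3 RPKM at 25 °C. At 15 °C both partners were highest in replicates 3 and 4, and the temperatures overlapped. The within-temperature r was 0.909 (permutation p = 0.00024, adjusted p = 0.020), and 0.666 without those 2 libraries, which are the 2 highest on the first principal component. The call ended without any 1 replicate at 15 °C, replicate 1 at 20 °C, or replicate 4 at 25 °C (adjusted p = 0.053 to 0.090). Without single libraries r itself ran from 0.853 to 0.926.

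On scaffold 41 (325 bp, bases 1019849 to 1020173) the minus-strand gene had 56.7–73.8 RPKM at 15 °C, 67.7–88.0 RPKM at 20 °C, and 77.2–95.3 RPKM at 25 °C. The plus-strand gene had 7.60–12.4, 10.5–13.5, and 10.2–13.2 RPKM. Within each of the temperatures the libraries high for one partner tended to be high for the other (r = 0.853, permutation p = 9e-05, adjusted p = 0.012), with r of 0.807 without the 2 libraries farthest from the median. Only the minus-strand gene was called between 25 and 15 °C (log2 change 0.41 ± 0.10, adjusted p = 0.0034), and the partner had 0.26 ± 0.14 (adjusted p = 0.15). The change of their ratio was not called (−0.15 ± 0.14, adjusted p = 0.45). Without replicate 1 at 20 °C, the adjusted p of r was 0.054.

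The pairs on scaffolds 15 (343 bp) and 232 (237 bp) were called at r of 0.821 and 0.788 (adjusted p = 0.039 and 0.025, permutation test). On scaffold 15 the minus-strand gene reached its highest level of 13.8 RPKM in replicate 3 at 15 °C, where the plus-strand gene also peaked at 39.4 RPKM, and the call ended without replicate 2, 3, 4, or 5 at 15 °C, any 1 replicate at 20 °C, or replicate 1, 4, or 5 at 25 °C (adjusted p = 0.054 to 0.17). On scaffold 232, whose minus-strand gene overlaps another model, the call ended without replicate 4 at 15 °C, replicate 1, 2, 3, or 4 at 20 °C, or replicate 4 at 25 °C (adjusted p = 0.0503 to 0.078). Without single libraries r ran from 0.692 to 0.886 on scaffold 15 and from 0.733 to 0.846 on scaffold 232. The fifth called pair lay on scaffold 30 (892 bp, bases 750408 to 751299), had the highest r of all (0.965, adjusted p = 0.0058), and was below the expression limit set for naming. Its partners ranged from 5.97 to 13.8 RPKM and from 1.65 to 4.49 RPKM.

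The 2 pairs with a negative call ran against each other within temperatures. On scaffold 102 (486 bp, bases 246049 to 246534) the minus-strand gene had 20.7, 16.9, 25.0, 28.2, and 18.2 RPKM at 15 °C and the plus-strand gene 10.5, 12.3, 9.45, 9.07, and 11.2 RPKM, so that the orders of the 5 libraries were exactly reversed. Over all 15 libraries the within-temperature r was −0.929 (permutation p = 4e-05, adjusted p = 0.0069) and the Spearman correlation −0.968, and neither partner was called at any temperature contrast. The minus-strand gene overlaps another model. On scaffold 1 (334 bp, bases 790467 to 790800) the partners had 2.48–4.57 and 10.03–16.1 RPKM over the libraries, and r was −0.824 (permutation p = 0.00018, adjusted p = 0.016). That call ended without replicate 3 at 15 °C (adjusted p = 0.079) or replicate 5 at 20 °C (adjusted p = 0.052).

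Genes of head-to-head pairs responded to temperature about as often as other genes, with few falls. Between 25 and 15 °C, 313 of the 1102 tested genes were called (28.4%), as against 31.7% of all 17818 tested genes. Of them 219 rose (19.9%), as against 15.0% of all, and 94 fell (8.53%), as against 16.7%. A change of at least 2-fold was called in 31 (2.81%), as against 7.01%, and the median log2 change was 0.10 as against 0.00. Among the 9634 tested JGI genes under the same exon and span limits, 16.2% rose and 15.2% fell. In bulk tissue, fewer cells of a type and less RNA per cell cannot be told apart. These calls used edgeR's quasi-likelihood test over all 15 libraries with Benjamini–Hochberg adjustment at 0.05.

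More calls fell between 15 and 20 °C than between 20 and 25 °C. There 190 member genes were called (17.2%, background 18.8%), of which 119 rose (10.8%, background 9.66%) and 71 fell (6.44%, background 9.11%). Between 25 and 20 °C, 23 were called (2.09%, background 3.68%), 18 higher (1.63%, background 1.14%) and 5 lower (0.454%, background 2.54%). That smaller count ranged from 11 to 29 when single libraries were left out, with 11 without replicate 5 at 25 °C, 12 without replicate 4 at 20 °C, 14 without replicate 2 at 20 °C or replicate 1 or 2 at 25 °C, and 15 without replicate 4 at 25 °C. The contrasts share libraries and are therefore not independent.

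The partners of a pair were called together about as often as those of any adjacent pair. Between 25 and 15 °C both partners were called in one direction in 37 of the 508 pairs (7.28%), as against 7.80% of all adjacent pairs. Of these, 32 rose together (6.30%, background 4.32%) and 5 fell together (0.984%, background 3.48%). Partners were called in opposite directions in 8 pairs (1.57%, background 4.23%), only 1 partner was called in 196 (38.6%, background 39.9%), and neither in 267. The one-direction share was 4.55% for tail-to-tail, 12.6% for tandem, and 7.26% for more distant head-to-head pairs. The opposite share was 5.84%, 5.14%, and 4.29% in that order, each above the 1.57% here, which rests on 8 pairs. Where 1 head-to-head partner was called, the other had a change of the same sign in 104 of 196 pairs (53.1%). This share was 54.2% (77 of 142) between 20 and 15 °C and 70.6% (12 of 17) between 25 and 20 °C. The share over all adjacent pairs is not given here, so it shows no trait particular to head-to-head pairs. Across the 508 pairs, the log2 changes of the partners had a Pearson correlation of 0.149 and a Spearman correlation of 0.122, beside Pearson values of 0.046 for tail-to-tail, 0.341 for tandem, and 0.175 for all adjacent pairs. The sign was shared in 288 pairs (56.7%, all adjacent pairs 54.9%). Between 20 and 15 °C it was shared in 273 pairs (53.7%, all adjacent pairs 53.6%). Between 25 and 20 °C it was shared in 308 (60.6%), as against 51.0% for tail-to-tail, 66.8% for tandem, and 55.1% for all adjacent pairs.

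The counts of joint and of opposite calls between 25 and 15 °C depended on single libraries. The 37 pairs called in one direction became 21 without replicate 1 and 23 without replicate 5 at 15 °C, and 20 without replicate 2 and 24 without replicate 4 at 25 °C. The 8 pairs with opposite calls became 4 without replicate 3 and 15 without replicate 4 at 15 °C, and 5 without replicate 1 or 3 at 25 °C. Without both replicates 3 and 4 at 15 °C the counts were 46 and 12. By within-temperature r, 8 of the 77 pairs with r over 0.5 were called in one direction (10.4%), 19 of 230 with r from 0 to 0.5 (8.26%), 10 of 174 with r from −0.5 to 0 (5.75%), and 0 of 27 with r under −0.5. Opposite calls numbered 0, 4, 4, and 0 in these classes. Between 25 and 15 °C the share of pairs with changes of one sign did not follow r, at 53.2%, 58.7%, 56.3%, and 51.9%. It was 51.9%, 57.4%, 50.6%, and 48.1% between 20 and 15 °C. Between 25 and 20 °C it was lower in each class of lower r, at 70.1%, 66.5%, 52.3%, and 37.0%.

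**Figure D4:**
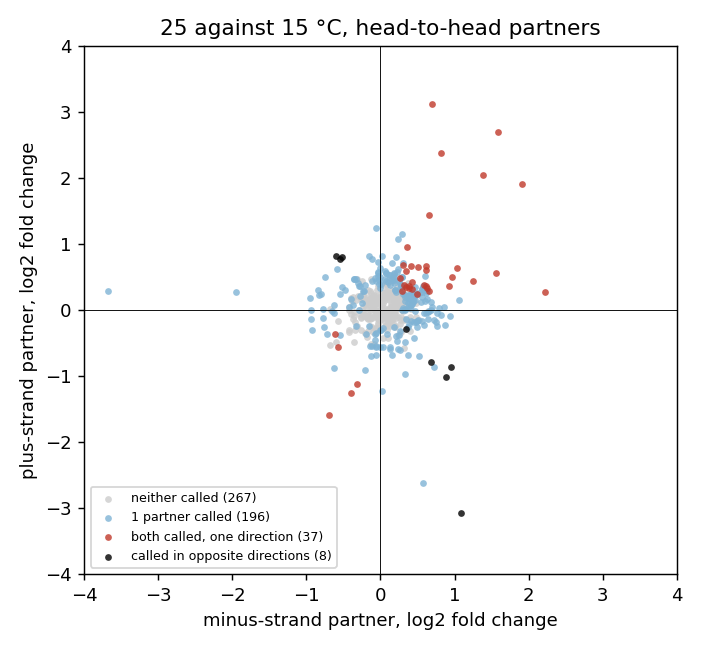
Log2 fold change from 15 to 25 °C of the minus-strand partner (x axis) against that of the plus-strand partner (y axis) for the 508 tested head-to-head pairs, colored by which partners were called. Most pairs lie near the origin or along an axis, where 1 partner was called (196 pairs); 32 of the 37 pairs called in one direction lie at the upper right, and 8 pairs were called in opposite directions.

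Ranked by the lesser of the partners' changes, the first joint rise was on scaffold 31 (676 bp, bases 848803 to 849478), between NEMVEDRAFT_v1g240574.EDO45270 on the minus and NEMVEDRAFT_v1g240575.EDO45222 on the plus strand. The first had 3.97, 4.57, 3.44, 6.21, and 3.05 RPKM at 15 °C, 21.3, 12.6, 17.1, 18.5, and 15.1 RPKM at 20 °C, and 15.5, 15.5, 20.6, 16.6, and 13.9 RPKM at 25 °C. The second had 50.9, 59.7, 57.7, 63.3, and 41.7 RPKM at 15 °C, 290.4, 223.8, 201.4, 219.7, and 203.0 RPKM at 20 °C, and 187.4, 202.2, 250.2, 223.5, and 168.2 RPKM at 25 °C. For both genes every library at 20 and 25 °C was above every library at 15 °C, and 20 and 25 °C overlapped. The log2 changes from 15 to 25 °C were 1.91 ± 0.19 (SE, edgeR adjusted p = 4.8e-07) and 1.92 ± 0.14 (adjusted p = 1.2e-08), and the ratio of the partners stayed within its error (−0.00 ± 0.17, limma adjusted p = 0.99). The partners rose by a factor of 3.8 each while 13.0-fold apart in level, and their within-temperature r was 0.745 (permutation test, adjusted p = 0.10).

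On scaffold 44 (816 bp) the minus-strand gene rose from 11.05 ± 2.40 (SD, n = 5) RPKM at 15 °C to 33.4 ± 5.76 RPKM at 25 °C, and the plus-strand gene from 2.32 ± 0.97 to 15.9 ± 3.33 RPKM, without overlap of the libraries. The log2 changes were 1.58 ± 0.17 and 2.70 ± 0.32 (edgeR adjusted p = 1.5e-06 and 1.9e-05), and the ratio shifted by 1.18 ± 0.25 toward the plus-strand gene (limma adjusted p = 0.0011). On scaffold 335 (744 bp) the partners rose by 1.39 ± 0.19 and 2.05 ± 0.14 (adjusted p = 2.4e-05 and 4.9e-09), from 130 ± 51.3 to 340 ± 46.3 RPKM and from 34.1 ± 5.66 to 141 ± 23.6 RPKM (SD, n = 5). In both pairs the levels at 20 °C, 36.1 and 16.7 RPKM on scaffold 44 and 429 and 142 RPKM on scaffold 335, were already at or above those at 25 °C.

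In the other 29 pairs that rose together, the lesser partner changed by less than 2-fold. Over all 32, the lesser partner had a median log2 change of 0.37 and the greater of 0.66. In 22 pairs neither partner reached 2-fold, in 7 only 1 did, and in 3 both did, the pairs on scaffolds 31, 44, and 335. The ratio of the partners was called in 9, and 12 were also called higher in both partners between 20 and 15 °C. Only 2 pairs were called together between 25 and 20 °C, on scaffolds 151 (790 bp) and 21 (915 bp), both of them higher at 25 °C. On scaffold 151 the partners had medians of 403.5, 461.1, and 809.9 RPKM and of 40.8, 99.4, and 213 RPKM at 15, 20, and 25 °C.

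Unequal rises were also found, in pairs chosen after their values were seen. On scaffold 16 (432 bp, bases 1460149 to 1460580) the plus-strand gene rose from a median of 2.88 RPKM at 15 °C to 28.3 RPKM at 25 °C (log2 change 3.12 ± 0.17, edgeR adjusted p = 3.2e-10), and the minus-strand gene from 6.63 to 13.6 RPKM (0.70 ± 0.17, adjusted p = 0.0043). On scaffold 20 (484 bp, bases 603266 to 603749) the minus-strand gene rose from 6.06 to 28.3 RPKM (2.23 ± 0.11, adjusted p = 1.8e-10) and the plus-strand gene from 25.4 to 30.7 RPKM (0.28 ± 0.09, adjusted p = 0.022).

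A joint fall was called in 5 pairs. The first by the lesser change was on scaffold 55 (624 bp, bases 507826 to 508449), between NEMVEDRAFT_v1g242019.EDO42763 on the minus strand, which overlaps another model, and NEMVEDRAFT_v1g164975.EDO42699 on the plus strand. The first had 9.28, 5.93, 9.82, 7.57, and 7.36 RPKM at 15 °C, 4.14–5.73 RPKM at 20 °C, and 4.59, 4.46, 5.83, 5.27, and 4.26 RPKM at 25 °C. The second had 14.7, 11.7, 15.6, 9.71, and 13.1 RPKM at 15 °C, 3.87–6.65 RPKM at 20 °C, and 4.50, 3.70, 4.13, 4.38, and 4.49 RPKM at 25 °C. Neither gene overlapped between 15 and 25 °C. The log2 changes were −0.70 ± 0.14 (edgeR adjusted p = 0.00073) and −1.59 ± 0.15 (adjusted p = 4.3e-07), and the ratio shifted by −0.87 ± 0.18 (limma adjusted p = 0.00091).

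In the other joint falls the lesser partner changed less. On scaffold 275 (535 bp) the plus-strand gene fell from 45.3 ± 5.37 to 19.0 ± 3.68 RPKM (SD, n = 5; log2 change −1.25 ± 0.13, edgeR adjusted p = 8e-07), whereas the minus-strand gene had 13.8 ± 1.85 and 10.5 ± 1.51 RPKM (−0.40 ± 0.13, adjusted p = 0.029), a call that ended without replicate 1, 2, or 5 at 15 °C or replicate 1, 2, or 4 at 25 °C (adjusted p = 0.051 to 0.092). On scaffold 307 (272 bp) the log2 changes of −0.57 ± 0.21 and −0.56 ± 0.21 (adjusted p = 0.046 for both) were near the threshold and were lost without 1 library in 10 and in 9 of the 15 cases (adjusted p up to 0.134 and 0.127). Only the fall on scaffold 55 held in both partners without any single library, among the 3 falls examined in this way.

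Pairs with opposite calls showed that partners across one gap could move apart. On scaffold 257 (511 bp, bases 161492 to 162002) the minus-strand gene had 5.09, 6.403, 5.51, 7.13, and 5.06 RPKM at 15 °C, 8.21, 7.62, 10.03, 8.11, and 7.99 RPKM at 20 °C, and 10.5, 10.9, 10.4, 11.6, and 11.01 RPKM at 25 °C. The plus-strand gene had 42.1, 39.4, 19.7, 27.7, and 39.4 RPKM at 15 °C, 14.2–27.9 RPKM at 20 °C, and 14.7, 12.1, 26.0, 13.2, and 19.9 RPKM at 25 °C. The minus-strand gene was higher at each step with no overlap between temperatures, and the libraries of the plus-strand gene overlapped between 15 and 25 °C. The log2 changes were 0.88 ± 0.14 (edgeR adjusted p = 8.7e-05) and −1.01 ± 0.23 (adjusted p = 0.0026), and the ratio of the plus- to the minus-strand gene changed by −1.93 ± 0.27 (limma adjusted p = 1.7e-05).

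On scaffold 183 (716 bp, bases 117691 to 118406) the minus-strand gene rose from 22.8 ± 2.17 to 43.8 ± 2.76 RPKM (SD, n = 5) between 15 and 25 °C, with 28.2 ± 3.39 RPKM at 20 °C. The plus-strand gene fell from 8.19 ± 1.79 to 4.54 ± 1.01 RPKM, and was at 4.41 ± 0.35 RPKM at 20 °C. The fall was called between 20 and 15 °C only (log2 change −0.90 ± 0.15, edgeR adjusted p = 0.00034), with 0.04 ± 0.15 between 25 and 20 °C (adjusted p = 0.93), and the rise at both steps (0.32 ± 0.10 and 0.63 ± 0.09, adjusted p = 0.026 and 0.00054). The ratio changed by −1.82 ± 0.20 (limma adjusted p = 1.1e-06). On scaffold 201 (452 bp, bases 103705 to 104156) the minus-strand gene rose from 215 ± 32.4 to 345 ± 35.9 RPKM, and the plus-strand gene fell from 49.4 ± 8.05 to 28.3 ± 3.83 RPKM (ratio −1.48 ± 0.17, adjusted p = 2.3e-06).

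**Figure D5:**
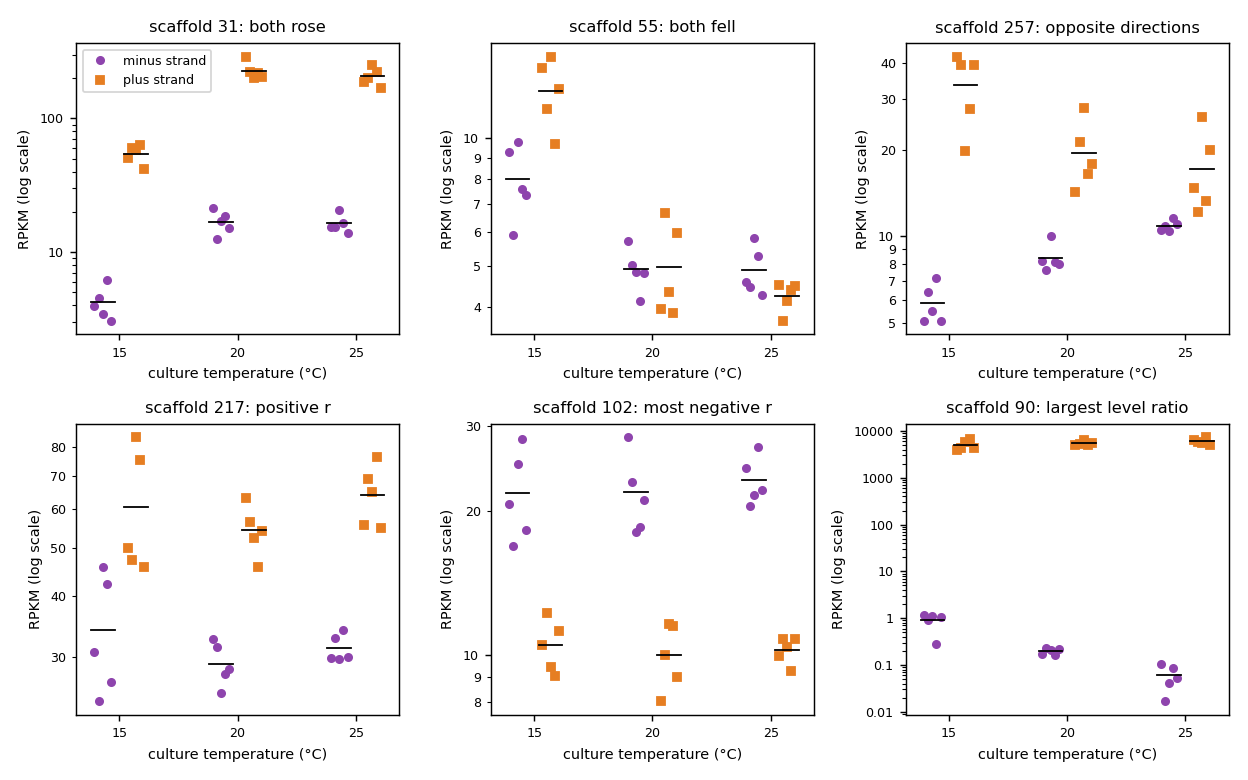
RPKM in every library (log scale) by culture temperature (°C) for the minus-strand (circles) and plus-strand (squares) partner of 6 head-to-head pairs, 5 libraries per temperature, with the mean as a line. On scaffold 31 both partners are higher at 20 and 25 than at 15 °C, on scaffold 55 both are lower, and on scaffold 257 they move apart; on scaffold 217 replicates 3 and 4 at 15 °C are high in both, and on scaffold 90 the partners differ 14151-fold.

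Among the pairs with opposite calls, the partner ratio changed most (log2 −3.95, limma adjusted p = 5.3e-07) in a pair whose weaker partner was below the expression limit for naming and which was chosen after its values were seen. On scaffold 136 (851 bp, bases 74839 to 75689) the minus-strand gene had 22.5–30.3 RPKM at 15 °C, 51.0–69.7 RPKM at 20 °C, and 51.4–58.9 RPKM at 25 °C. The plus-strand gene had 1.37–6.31, 0.218–1.09, and 0.276–0.633 RPKM, from 191 counts in all. Both genes separated 15 °C from the warmer cultures without overlap, in opposite directions (log2 changes from 15 to 25 °C 1.08 ± 0.11 and −3.07 ± 0.42, edgeR adjusted p = 6.2e-07 and 2.2e-05). Of the 8 pairs with opposite calls, 5 had a gap over 500 bp, as did 174 of all 508 tested pairs (34.3%), and 4 were also called in opposite directions between 20 and 15 °C. These counts are too small to read a relation to the gap.

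The ratio of the partners was called changed between 25 and 15 °C in 132 of the 508 pairs (26.0%), as against 29.8% of all adjacent pairs. It was called in 12 of the 37 pairs that moved in one direction, in 95 of the 196 with 1 called partner, in 8 of the 8 with opposite calls, and in 17 of the 267 with no called partner. In the other pairs with 1 called partner, it was not shown that the partners responded differently. Between 20 and 15 °C, 15 pairs were called in one direction (2.95%, background 3.65%), 14 of them higher (background 2.32%) and 1 lower (background 1.33%), 4 in opposite directions (0.787%, background 1.19%), 1 partner in 142 (28.0%, background 27.7%), and the ratio in 90 (17.7%, background 18.5%). Between 25 and 20 °C the ratio was called in 9 (1.77%, background 5.28%). There 2 pairs were called in one direction (0.394%, background 0.487%), 2 of them higher (background 0.105%) and 0 lower (background 0.382%), 1 partner was called in 17 (3.35%, background 7.06%), and 0 were called in opposite directions (background 0.0527%).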

How the data were processed

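Raw fragment counts per gene model were deposited by the authors without normalization, and the submitters' processing notes name Trimmomatic 0.38, HISAT2 2.1.0, StringTie 2.0, and featureCounts. The strand setting of the counting is not given in the sources used here, so reads of partners whose unannotated 5′ ends overlap may not be separated. The 2 columns of each library are not explained by the labels and were summed. Gene positions came from the deposited models (JGI and TACO), and the deposited length equaled the summed exons for all 27527 models. Gap sequences were not analyzed here.

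RPKM and log2 CPM (prior count 2) used TMM library sizes. The edgeR 4.0.16 package in R 4.3.3 was used for the temperature contrasts (filterByExpr, robust quasi-likelihood test, all 15 libraries), and partner ratios with limma 3.58.1 on voom values over 7594 adjacent tested pairs. Correlations were permuted within temperatures (Python 3.11.15, numpy 2.4.6, scipy 1.17.1; figures with matplotlib 3.10.9). The log2 fold change SE was derived from the F statistic. The procedures were also run on simulated counts with planted changes, and the outcome is not given here. The planted shared deviations were larger than the median within-temperature SD of the member genes (0.205 log2 CPM). They therefore do not measure the power at the spread of these data. Alternatives were DESeq2 1.42.0 (its size factors and its Wald test), limma-voom, other filters, a replicate block, Spearman, removal of 2 principal components, thinning to the lowest total, gaps of at most 500 bp, pairs without other models, the compared libraries only, and each library left out.

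Pairs were named by rule: called coexpressed and most negative pairs with both partners at a log2 CPM of at least 3, the 3 largest joint rises, falls, and opposite changes at a log2 CPM of at least 1, and the extremes of gap, level, and level ratio. Members and lists were chosen with earlier results of these data known.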

Additional observations from a re-analysis of the deposited data

Results flagged for a closer look

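In 7 of 135 groups of 5 libraries, 1 library stood apart from the other 4 by more than Dixon's critical value, and chance alone gives about 1 in 20 groups (6.75 of 135). The plus-strand gene on scaffold 31 had 290.4 RPKM in replicate 1 at 20 °C, with the others between 201.4 and 223.8. The minus-strand gene on scaffold 44 had 15.34 RPKM in replicate 2 at 15 °C, with the others between 9.82 and 10.19. The minus-strand gene on scaffold 257 had 10.03 RPKM in replicate 3 at 20 °C, with the others between 7.621 and 8.206. The minus-strand gene on scaffold 201 had 407.1 RPKM in replicate 4 at 25 °C, with the others between 316.1 and 341.8. The minus-strand gene on scaffold 90 had 0.2814 RPKM in replicate 4 at 15 °C, with the others between 0.9185 and 1.172. The number of pairs with at least 10 counts in both partners was 446 in replicate 3 at 15 °C, the library with the lowest total, with the others at that temperature between 499 and 508. The median level of the member genes was 11.7 RPKM in replicate 1 at 20 °C, with the others between 10.3 and 10.7.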

How the results depend on the processing

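The count of 5 coexpressed pairs was the least stable value. It was 3 without a filter on low counts (of 583 pairs), 2 by Spearman, 1 with the replicate block, 1 without both replicates 3 and 4 at 15 °C (chosen after the data were seen), 0 with the first 2 principal components removed, and 0 of 477 pairs after thinning to the lowest total, and 1–6 without single libraries. The median r was 0.0429 after thinning, which also adds counting error, and 0.0901–0.122 without single libraries. The 37 pairs called in one direction became 24 at gaps of at most 500 bp, where fewer pairs were tested (7.19% of 334, beside 7.28% of 508), and 20–44 without single libraries. The genes called between 25 and 20 °C (23) numbered 35 without both replicates 3 and 4 at 15 °C (chosen after the data were seen), and 11–29 without single libraries. The 8 opposite pairs became 4–15 without single libraries. The remaining gene and ratio counts stayed within 1.5 times, at 256–357 for 313 genes, 154–230 for 190 genes, and 111–146 for 132 ratios without single libraries. No named change reversed, and 86 of 589 values of named genes and pairs lost their call. Depth limits the pairs tested (446–514 with 10 counts in both partners) and the smallest correlations that 15 libraries can show. The deviations of same-numbered libraries of different temperatures had correlations from −0.089 to 0.286, with 6 of 15 over 0.1. Their mean was 0.089, as against −0.022 for the 60 other library pairs. Whether replicate numbers mark a pairing or a batch was not tested. With the replicate number as a block, 321, 198, and 27 genes, 39 pairs, 158 ratios, and 1 coexpressed pair were called, at a median r of 0.110.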
